A study of Mus musculus with 46 samples.

Results

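The Notch receptors, their ligands and their target genes were followed through sorted cells of the obstructed mouse kidney. The set held 10 genes, chosen by name from the 53465 genes of the expression table: the receptors Notch1, Notch2, Notch3 and Notch4, the ligands Jag1, Jag2, Dll1 and Dll4, and the target genes Hes1 and Hey1. All 10 had a mean of at least 1 FPKM (a fragment count scaled by transcript length and by the size of the library) over the 44 samples used.

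Notch receptors are single-pass membrane proteins that are engaged by Jagged or Delta-like ligands on a neighbouring cell. Binding lets ADAM proteases and then the gamma-secretase complex cut the receptor, and the freed intracellular domain joins the DNA-binding protein RBPJ to switch on genes of the Hes and Hey families of repressors. In the kidney the pathway is known for patterning the nephron and its vessels during development, Notch1 and Notch4 with Dll4 are known from endothelium, and Notch3 is known from pericytes and vascular smooth muscle.

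The mice were male C57BL/6 animals of 8 to 12 weeks, with no transgene or deletion named in the methods. One ureter was tied (unilateral ureteric obstruction, UUO), tied and later reimplanted so that the obstruction was reversed (rUUO), or the mice had sham surgery. Kidneys were taken on day 2 or day 7 after UUO and 14 days after reversal, and the labels do not say which UUO samples belong to which day. Proximal tubular (PT) cells were sorted as LTL+, macrophages as F4/80+, endothelial cells as CD31+ and stromal cells as PDGFRB+, with the replicates of a group coming from separate mice. PT cells gave 3 sham, 4 UUO and 3 rUUO samples, macrophages 4, 4 and 3, endothelial cells 4, 3 and 4, and stromal cells 4 in each surgery.

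Each population carried its own markers: the summed FPKM of 8 endothelial markers was 3126 to 3850 in endothelial sham samples and at most 102 in the other sham sorts, and 8 macrophage markers summed to 8174 to 10290 in macrophage sham samples and to at most 105 elsewhere in sham. Marker levels of other cells differed between surgeries within a sort. In stromal cells the summed FPKM of 4 thick ascending limb markers was 259.5 to 335 in sham and 28.7 to 54.2 in UUO, and that of 4 collecting duct markers was 67.6 to 165 in sham and 2.87 to 18.8 in UUO. In PT cells the collecting duct sum was 13.9 to 15.4 in sham and 258.5 to 379 in UUO, and nearly all of the latter was the proton pump subunit gene Atp6v1g3 (5.50 ± 1.84 FPKM in sham, SD, n = 3, and 283 ± 68.4 in UUO, SD, n = 4), while the water channel gene Aqp2 was at 1.5 to 2.99 FPKM in sham and 2.69 to 7.33 in UUO. Of the remaining collecting duct markers in PT cells, Hsd11b2 was at 1.44 to 3.79 FPKM in sham and 11.9 to 29.8 in UUO. Aqp3 was at 3.13 to 5.5 FPKM in PT sham and 4.84 to 7.81 in PT UUO. Mitochondrial genes held 58.7% to 75.6% of the FPKM in PT samples and 20.2% to 45.8% elsewhere, and this share was 34.0% to 45.8% in stromal sham against 21.5% to 26.4% in stromal UUO. The table has no counts, so precision was read from the spread between samples, and in sorted bulk RNA fewer cells of a type and less RNA per cell cannot be told apart.

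The members were placed on GRCm38 (mm10) by the coordinates of the expression table, each as a whole gene with its exons, introns and untranslated regions. Notch1 spans chr2:26457903-26516663 on the minus strand, Notch2 chr3:98013527-98150361 on the plus strand, Notch3 chr17:32120820-32166880 on the minus strand and Notch4 chr17:34564268-34588503 on the plus strand. Jag1 spans chr2:137081456-137116644 and Jag2 chr12:112907819-112929776, both on the minus strand, while Dll1 lies at chr17:15367354-15376872 on the minus strand and Dll4 at chr2:119325784-119335962 on the plus strand. Hes1 lies at chr16:30064384-30067796 on the plus strand and Hey1 at chr3:8663359-8667256 on the minus strand. Other annotated genes overlap the spans of 7 members, and the overlapping genes reached at most 34.6 FPKM for Notch1, 34.5 FPKM for Dll4 and 5.53 FPKM for the other 5. Whether reads were counted by strand is not given in the sources used here, so reads of these overlapping genes cannot be told apart with certainty.

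Start-site sequences are shown for the 4 members whose level differed between rUUO and sham in at least one sorted population, Jag1, Notch2, Notch3 and Dll4. They are RefSeq promoters of GRCm38.p6, each running 5′ to 3′ on the gene's own strand from 250 bases before to 50 bases after the start, and the capitals mark the GC box GGGCGG or its other strand CCGCCC. The windows are chr2:137116471-137116770 (minus) for Jag1, chr3:98013288-98013587 (plus) for Notch2, chr17:32166841-32167140 (minus) for Notch3 and chr2:119325534-119325833 (plus) for Dll4.
Jag1: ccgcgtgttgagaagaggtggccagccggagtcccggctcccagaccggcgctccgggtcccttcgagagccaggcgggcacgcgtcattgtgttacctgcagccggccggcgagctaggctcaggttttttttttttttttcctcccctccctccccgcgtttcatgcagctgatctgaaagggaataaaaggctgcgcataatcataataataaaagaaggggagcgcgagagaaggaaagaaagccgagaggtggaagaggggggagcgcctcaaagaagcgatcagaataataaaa
Notch2: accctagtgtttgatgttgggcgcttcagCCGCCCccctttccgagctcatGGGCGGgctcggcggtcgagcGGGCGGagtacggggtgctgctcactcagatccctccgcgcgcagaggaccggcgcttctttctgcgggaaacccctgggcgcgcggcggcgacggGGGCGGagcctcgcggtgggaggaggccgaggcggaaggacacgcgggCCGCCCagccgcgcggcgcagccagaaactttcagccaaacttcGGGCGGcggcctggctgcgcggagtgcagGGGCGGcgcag
Notch3: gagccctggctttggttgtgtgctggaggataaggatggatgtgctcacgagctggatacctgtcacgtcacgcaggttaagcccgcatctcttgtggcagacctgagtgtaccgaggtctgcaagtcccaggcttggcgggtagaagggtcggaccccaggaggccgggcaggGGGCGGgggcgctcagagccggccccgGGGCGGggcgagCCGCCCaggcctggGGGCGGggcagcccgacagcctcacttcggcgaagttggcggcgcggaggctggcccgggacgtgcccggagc
Dll4: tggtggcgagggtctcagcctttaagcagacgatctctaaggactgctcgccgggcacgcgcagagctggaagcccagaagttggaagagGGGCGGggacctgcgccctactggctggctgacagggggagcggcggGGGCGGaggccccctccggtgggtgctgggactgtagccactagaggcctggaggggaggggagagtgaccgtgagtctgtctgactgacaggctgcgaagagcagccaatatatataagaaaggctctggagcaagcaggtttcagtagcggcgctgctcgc
The GC content of the windows was 55.7% for Jag1, 73.0% for Notch2, 70.0% for Notch3 and 63.7% for Dll4. The GC box matched 0 times in the Jag1 window, 7 times in that of Notch2, 4 times in that of Notch3 and 2 times in that of Dll4, where 35.7% of the 32851 promoters of this length held at least one match on either strand. The core of the RBPJ site, TGGGAA or TTCCCA on the other strand, matched in 0 of the 9 windows found for 8 members, and 25.6% of all promoters held it. These letters being absent from a window of 300 bases says nothing about RBPJ binding elsewhere. Hes1 and Hey1 had no entry.

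In sham kidneys the members sorted by cell type. Endothelial cells had the highest mean level of 8 members, macrophages of Notch2 and stromal cells of Notch3. PT cells had a mean of at most 3.49 FPKM for any member, reached by Dll1, for which they came second to endothelial cells. Tests used limma on log2(FPKM + 1) over 14204 genes with Benjamini-Hochberg adjustment, and differences and changes below are on this scale, which understates differences between low values. Of the 10 members, 10 differed between macrophages and endothelial cells (45.7% of all genes did), 9 between PT and endothelial cells (62.3%), 9 between PT and stromal cells (67.6%, and 4 members with quantile normalization), 9 between macrophages and stromal cells (48.1%), 7 between endothelial and stromal cells (24.2%) and 3 between PT cells and macrophages (64.9%). Genes entered these tests by their mean over all sham samples. Notch3, Notch4, Jag1, Jag2, Dll4 and Hey1 had means under 1 FPKM in PT cells and in macrophages. They entered through endothelial or stromal cells, where they were high. The counts, also the low one between PT cells and macrophages, partly reflect this entry and are not read as a result about the set.

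**Figure D1:**
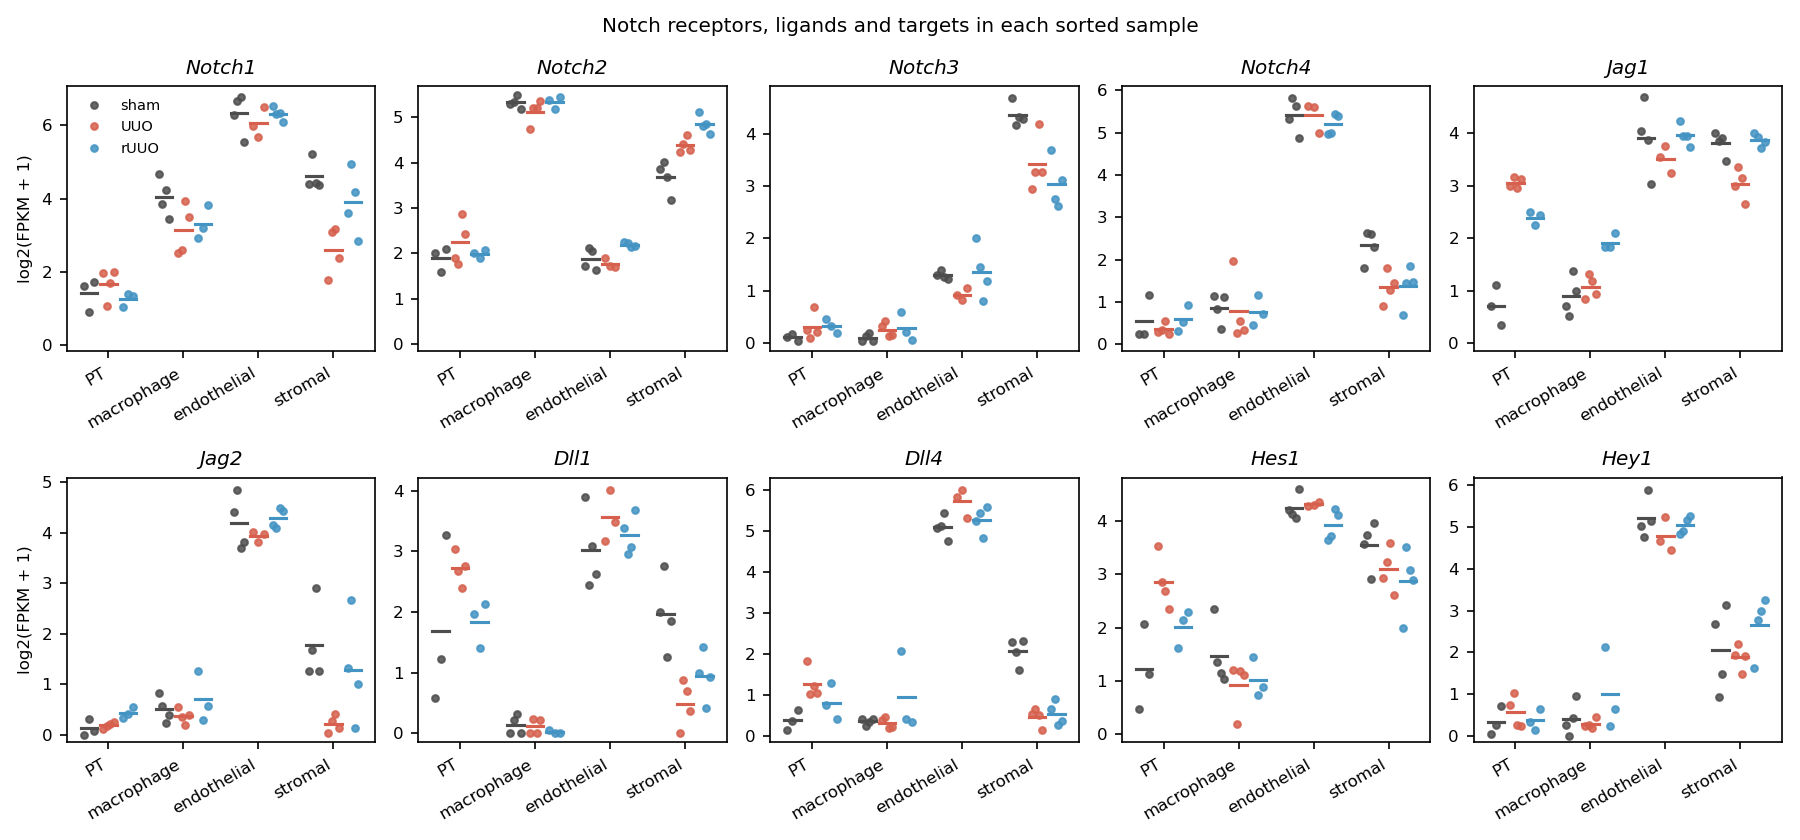
Level of each member in each of the 44 sorted samples, as log2(FPKM + 1) on the vertical axis, with the 4 populations along the horizontal axis. Points are samples and short lines are group means for sham (dark grey), UUO (red) and rUUO (blue). Jag1 in PT cells is at 0.27 to 1.14 FPKM in sham and at 6.78 to 7.95 FPKM in UUO, and Notch2 in stromal cells is at 8.11 to 15.2 FPKM in sham and 24.0 to 33.7 FPKM in rUUO.

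Among the receptors, Notch1, the founding member of the family in mammals, had 77.2, 100.3, 108 and 45.9 FPKM in the endothelial sham samples. Stromal sham samples had 19.6 to 36.4 FPKM, macrophage sham samples 9.79 to 24.6 FPKM and PT sham samples 0.89 to 2.32 FPKM. All 4 endothelial values lay above every value of the other populations, and the stromal and macrophage ranges overlapped. The endothelial mean of 82.95 ± 28.0 (SD, n = 4) exceeded the stromal mean of 24.1 ± 8.21 (SD, n = 4) by 1.72 on the log2 scale (adjusted p = 0.000467), the stromal and macrophage means did not differ beyond their spread (difference 0.55, adjusted p = 0.167), and macrophages exceeded PT cells by 2.63 (adjusted p = 3.52e-06). Notch4, a receptor known from endothelium, had 28.5 to 55.6 FPKM in endothelial sham samples, 2.52 to 5.19 in stromal ones, 0.28 to 1.20 in macrophages and 0.18 to 1.26 in PT cells. Its endothelial level stood 3.08 above the stromal one on the log2 scale (adjusted p = 4.11e-07), and that of macrophages did not differ from that of PT cells beyond their spread (difference 0.31, adjusted p = 0.422).

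Notch2 followed another order. This receptor, whose loss disturbs proximal nephron formation, had 38.4, 39.8, 44.2 and 35.2 FPKM in the macrophage sham samples. Stromal sham samples had 13.5, 15.2, 11.9 and 8.11 FPKM, and the PT and endothelial sham samples had 2.02 to 3.25 and 2.10 to 3.32 FPKM. The macrophage values formed the highest group with no overlap, 1.64 above stromal cells on the log2 scale (adjusted p = 7.14e-06), and the PT and endothelial groups were not told apart (difference 0.02, adjusted p = 0.957). Notch3, the mural cell receptor, had 24.7, 17.1, 19.1 and 18.6 FPKM in the stromal sham samples, and its next highest values were 1.35 to 1.62 FPKM in endothelial cells. The stromal level was 3.08 above the endothelial one (adjusted p = 5.41e-09), and in PT cells and macrophages no sham sample exceeded 0.14 FPKM.

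The receptor messages therefore made up different mixtures, as the plot of receptor and ligand shares shows. FPKM is scaled to transcript length, so levels of different genes in one sample can be summed and compared. In sham, Notch2 made up 70.0% ± 7.18 (SD, n = 4) of the receptor FPKM of macrophages and 55.6% ± 7.73 (SD, n = 3) of that of PT cells. Endothelial receptor message was 63.2% ± 3.38 Notch1 and 33.5% ± 2.74 Notch4 (SD, n = 4), with 2.15% ± 0.371 from Notch2. In stromal sham cells Notch1, Notch3 and Notch2 took 39.3% ± 7.07, 33.6% ± 7.55 and 20.0% ± 2.66 (SD, n = 4). The summed receptor FPKM was 130.1 ± 39.9 in endothelial cells, 60.4 ± 10.02 in stromal cells, 56.8 ± 8.34 in macrophages and 5.13 ± 1.83 in PT cells. Mitochondrial genes held 68.9% to 75.6% of the FPKM in PT sham samples and 24.6% to 45.8% in the other sham sorts. This left a smaller share for all other genes in PT cells, so the PT sum cannot be set directly against the others.

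**Figure D2:**
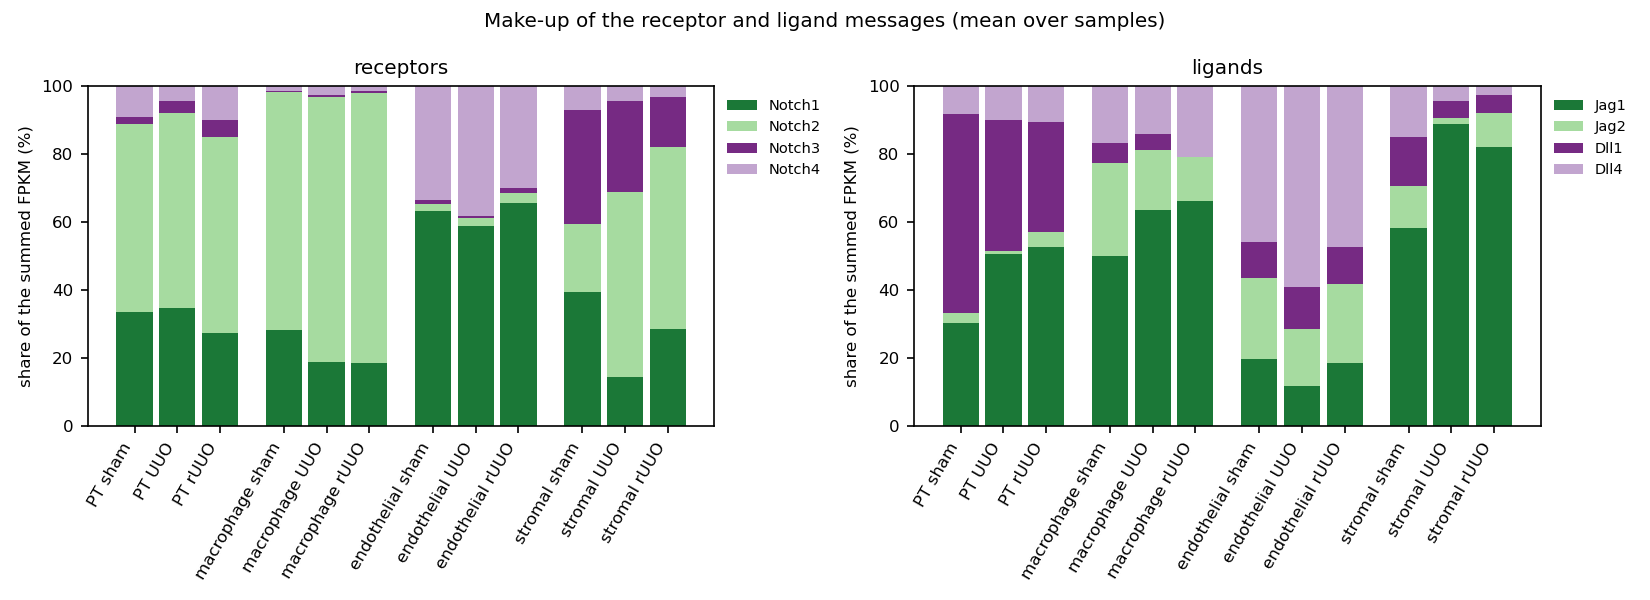
Share of each gene in the summed FPKM of the 4 receptors (left) and of the 4 ligands (right), in percent, as the mean over the samples of each population and surgery. In stromal cells the Notch2 share of the receptors goes from 20.0% in sham to 54.7% in UUO and 53.4% in rUUO, and the Jag1 share of the ligands from 58.2% to 88.7% and 82.0%.

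Ligands were carried mainly by endothelial and stromal cells. Jag1, a Jagged ligand that is expressed in many epithelia and vessels, had 15.5, 24.7, 13.7 and 7.23 FPKM in endothelial sham samples and 15.0, 13.4, 14.1 and 10.1 FPKM in stromal ones. These groups overlapped throughout (difference 0.11, adjusted p = 0.863), while macrophages had 0.43 to 1.59 FPKM and PT cells 0.27 to 1.14 FPKM. Dll4, the ligand that restrains sprouting of new vessels, had 26.0 to 42.7 FPKM in endothelial, 2.06 to 4.04 in stromal, 0.11 to 0.55 in PT and 0.19 to 0.34 in macrophage sham samples. Its endothelial level was 3.03 above the stromal one (adjusted p = 2.79e-08). Jag2, the second Jagged ligand, had 11.9 to 27.8 FPKM in endothelial sham samples and 1.39 to 6.53 in stromal ones (difference 2.42, adjusted p = 4.5e-05).

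Dll1, a Delta-like ligand, varied widely between replicates. Its sham values were 13.9, 4.45, 7.52 and 5.20 FPKM in endothelial cells, 0.50, 1.35 and 8.61 FPKM in PT cells and 3.02, 5.80, 1.39 and 2.59 FPKM in stromal cells. The third PT value lay above all stromal values and above 3 of the 4 endothelial ones. PT and stromal means did not differ beyond this spread (difference 0.27, adjusted p = 0.653), and in macrophages 2 of 4 sham samples listed Dll1 at 0 and none exceeded 0.24 FPKM. In sham, Dll4 made up 46.0% ± 8.82 of the endothelial ligand FPKM and Jag1 58.2% ± 4.38 of the stromal one (SD, n = 4).

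Both target genes of the set had their highest sham mean in endothelial cells, and only Hey1 was told apart there from stromal cells. Hey1, a repressor used in arterial fate, had 31.6, 26.1, 58.4 and 34.3 FPKM in endothelial sham samples, 0.91 to 7.74 in stromal cells and at most 0.95 in macrophages and PT cells. The endothelial mean was 3.15 above the stromal one (adjusted p = 1.35e-05). Hes1, a repressor with a broad range of expression, had 15.7 to 23.1 FPKM in endothelial and 6.47 to 14.6 FPKM in stromal sham samples. These did not differ beyond their spread in the adjusted test (difference 0.70, adjusted p = 0.177), although the ranges did not overlap. Hes1 in macrophages (1.04 to 4.07 FPKM) and PT cells (0.39 to 3.21 FPKM) was lower and was not told apart (adjusted p = 0.605).

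Obstruction was followed by member changes in PT and stromal cells. In the fits by population, 5 members passed the filter of a mean of 1 FPKM in PT cells, 4 in macrophages and 10 each in endothelial and stromal cells. Against sham, 2 members were higher and 0 lower in PT UUO, where 27.9% of 11416 genes were higher and 4.91% lower. In stromal UUO 1 member was higher and 6 were lower, where 13.4% of 14033 genes were higher and 13.0% lower. Of the lower members, Dll4, Dll1 and Jag2 had UUO means under 1 FPKM and entered through groups where they were higher. In PT cells Jag1, with a sham mean of 0.677 FPKM, entered through UUO and rUUO. The PT and stromal counts partly reflect this entry and are not read as a result about the set. In macrophages 0 of 4 and in endothelial cells 0 of 10 passed the limma test, with 1 member at an unadjusted p under 0.05 in each, against backgrounds of 2.86% higher and 2.13% lower of 13332 genes in macrophages and 1.28% higher and 0.702% lower of 13393 genes in endothelial cells. Scaling bears on these directions: of the genes called in UUO against sham, 85.0% were higher in PT cells, 50.8% in stromal cells and 64.5% in endothelial cells, and after rescaling without mitochondrial genes these shares were 69.4%, 38.9% and 47.7%. With quantile normalization the PT share was 50%. In rUUO against sham the share of calls that were higher was 87.3% in PT, 79.3% in endothelial and 67.6% in stromal cells, and 68.6%, 61.1% and 51.5% with quantile normalization. In rUUO against UUO it was 17.6%, 75.0% and 70.8%, and 58.8%, 45.5% and 53.3% with quantile normalization.

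**Figure D3:**
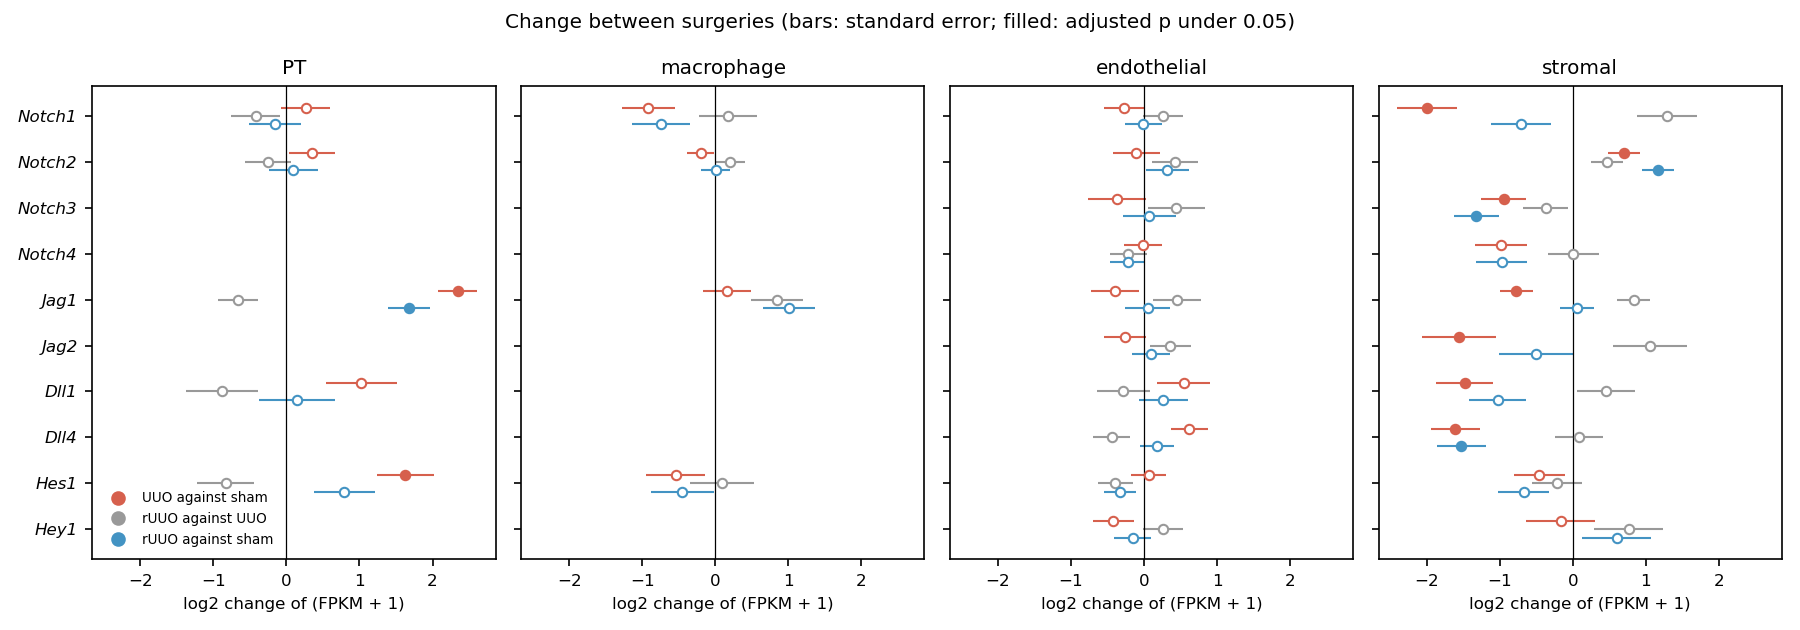
Change of each member between surgeries, on the log2(FPKM + 1) scale, in the 4 populations, with 1 panel per population. Points are limma estimates, bars are 1 standard error, and filled points have an adjusted p under 0.05. Filled points stand to the right of 0 for Jag1 and Hes1 in PT cells and for Notch2 in stromal cells, and to the left of 0 for 6 members in stromal UUO and for Notch3 and Dll4 in stromal rUUO against sham.

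Jag1 had the lowest adjusted p of the members between surgeries, in PT cells. It had 0.62, 1.14 and 0.27 FPKM in sham, 6.93, 7.95, 6.78 and 7.68 FPKM in UUO and 4.64, 3.75 and 4.40 FPKM in rUUO. The 3 groups did not overlap, with sham lowest, UUO highest and rUUO between them. With a sham mean under 1 FPKM, Jag1 passed the PT filter through UUO and rUUO. The rise from 0.677 ± 0.438 (SD, n = 3) to 7.34 ± 0.568 FPKM (SD, n = 4) came to 2.34 ± 0.27 (SE) on the log2 scale (adjusted p = 2.06e-05), beside a median change over all genes of 0.51. With quantile normalization, which took that median to -0.04, the rise was 1.74 (adjusted p = 0.000313). In rUUO Jag1 remained above sham by 1.68 ± 0.29 (adjusted p = 0.00193), where 6.52% of genes were higher and 0.946% lower, and it was the only member called of the 5. Its difference of -0.66 between rUUO and UUO did not pass the test (adjusted p = 0.176). Between rUUO and UUO 0 of 5 members were called by limma in PT cells, 1 of them with an unadjusted p under 0.05, while 0.674% of genes were higher and 3.15% lower.

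In the other populations Jag1 moved differently. The sham samples of stromal cells had 15.0, 13.4, 14.1 and 10.1 FPKM of Jag1, those of UUO 6.94, 9.20, 7.91 and 5.25 FPKM and those of rUUO 15.0, 14.3, 12.1 and 13.2 FPKM. The UUO values lay below all others and the rUUO values overlapped with sham. The fall in UUO was -0.77 ± 0.23 (SE, adjusted p = 0.0212), and the later difference of 0.83 between rUUO and UUO had an adjusted p of 0.0542. Left-out samples mattered here: the fall had an adjusted p of 0.0508 to 0.0674 without stromal sham replicate 1, 2 or 3 or stromal UUO replicate 4. Macrophage Jag1 had 0.43 to 1.59 FPKM in sham, 0.79 to 1.48 in UUO and 2.54, 2.56 and 3.25 in rUUO. All 3 rUUO values lay above every other macrophage value, but the difference from sham of 1.02 had an adjusted p of 0.155. The change from sham to UUO differed among the 4 populations by an interaction test (F = 29.9, adjusted p = 2.16e-08), as did the changes from UUO to rUUO (F = 7.72, adjusted p = 0.0155) and from sham to rUUO (F = 9.36, adjusted p = 0.00163). Jag1 had sham means under 1 FPKM in PT cells and macrophages, with little room to fall. Its F values from sham therefore partly reflect the starting level. Without PT rUUO replicate 3, no member was called in the test from UUO to rUUO.

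Hes1 rose beside Jag1 in PT cells. Its values were 0.39, 3.21 and 1.19 FPKM in sham, 10.5, 6.19, 5.44 and 4.07 FPKM in UUO and 2.06, 3.41 and 3.92 FPKM in rUUO. Every UUO value lay above every sham and rUUO value, and rUUO overlapped with sham. The rise was 1.62 ± 0.39 (SE, adjusted p = 0.00647), and with quantile normalization it was 1.02 with an adjusted p of 0.0927. In rUUO the difference from sham of 0.79 did not pass (adjusted p = 0.293). The 2 Jag1 and Hes1 rises came with collecting duct marker sums that were also higher in PT UUO (258.5 to 379 against 13.9 to 15.4 FPKM, 2 of 4 markers higher, carried by Atp6v1g3), thick ascending limb sums of 144.5 to 186.5 against 20.8 to 24.4 FPKM (2 of 4 higher, carried by Umod at 134 to 169 FPKM in UUO), and PT marker sums of 676 to 892 against 2623 to 3562 FPKM (8 of 8 lower). None of the collecting duct or thick ascending limb markers was at 0 throughout, and the part of these cells in the 2 rises was not tested.

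The other PT members did not pass. Dll1 had 0.50, 1.35 and 8.61 FPKM in PT sham and 7.22, 5.41, 4.28 and 5.80 FPKM in PT UUO, and the highest of all was a sham sample. Its difference of 1.03 had an adjusted p of 0.12, and without that sample, PT sham replicate 4, it was 1.81 with an adjusted p of 0.00317. PT Notch1 (0.89 to 2.32 FPKM in sham, 1.09 to 2.99 in UUO) and PT Notch2 (2.02 to 3.25 in sham, 2.41 to 6.31 in UUO) overlapped between surgeries, with differences of 0.26 and 0.35. The members under the filter in PT cells stayed low, although Dll4 had 0.11 to 0.55 FPKM in sham and 1.05 to 2.56 in UUO, and it was not tested there. Notch3, Notch4, Jag2 and Hey1 reached at most 0.62, 1.26, 0.46 and 1.03 FPKM in any PT sample.

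In stromal cells the receptors parted. Notch2 had 13.5, 15.2, 11.9 and 8.11 FPKM in sham, 17.7, 20.4, 23.5 and 18.4 FPKM in UUO and 33.7, 26.9, 27.8 and 24.0 FPKM in rUUO. The 3 groups did not overlap and rUUO was highest. The difference was 0.70 ± 0.22 in UUO (SE, adjusted p = 0.0282) and 1.16 ± 0.22 in rUUO (adjusted p = 0.00149), beside a median over all genes of -0.07 and 0.15. In rUUO against sham 1 stromal member was higher and 2 were lower, beside 11.6% of genes higher and 5.57% lower. The UUO call, but not the rUUO call, was lost when values were rescaled without mitochondrial genes (0.53, adjusted p = 0.0852), and it had an adjusted p of 0.0508 to 0.0893 without stromal sham replicate 3 or 4 or stromal UUO replicate 2 or 3.

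Notch3 went the other way. Its stromal values were 24.7, 17.1, 19.1 and 18.6 FPKM in sham, 6.74, 8.62, 17.2 and 8.71 FPKM in UUO and 11.98, 5.73, 5.16 and 7.73 FPKM in rUUO. All rUUO values lay below all sham values, and 1 UUO value reached into the sham range. The fall was -1.32 ± 0.30 in rUUO (SE, adjusted p = 0.0063) and -0.95 ± 0.30 in UUO (adjusted p = 0.0303). Under every alternative and every left-out sample the rUUO fall had an adjusted p of at most 0.0452, whereas the UUO fall had one of 0.0537 to 0.0921 without stromal sham replicate 1, 3 or 4 or stromal UUO replicate 1, 2 or 4. The sort's own stromal markers moved as well: of 8, 5 were higher and 2 lower in UUO (median 1.38), and of 5 smooth muscle markers 3 were higher and 1 lower (median 1.26). In rUUO against sham 5 of the 8 were higher and 3 lower (median 1.43). Of the smooth muscle markers 1 was higher and 1 lower there (median 0.44). The pericyte marker Rgs5 was at 268 ± 110 FPKM in sham and 90.9 ± 27.4 in rUUO (SD, n = 4). Cspg4 was at 57.2 ± 9.91 and 24.4 ± 2.89, and Pdgfrb at 212 ± 43.5 and 128.5 ± 9.03.

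Notch1 fell in stromal UUO and was spread out after reversal. Sham samples had 20.1, 36.4, 20.4 and 19.6 FPKM, UUO samples 2.44, 7.53, 7.98 and 4.22 FPKM and rUUO samples 11.2, 29.7, 17.2 and 6.19 FPKM. Sham and UUO did not overlap, and rUUO overlapped with both. The fall was -1.995 ± 0.414 (SE, adjusted p = 0.00205) and had an adjusted p of at most 0.0114 under every alternative and every left-out sample, while rUUO did not pass against sham (-0.71, adjusted p = 0.287) or against UUO (1.29, adjusted p = 0.0962). Without stromal rUUO replicate 6, the latter was 1.64 with an adjusted p of 0.0447. Notch4 was at 2.52 to 5.19 FPKM in sham and 0.88 to 2.47 FPKM in UUO, groups that did not overlap, with a difference of -0.98 at an adjusted p of 0.0505. It was called in UUO when rescaled without mitochondrial genes (adjusted p = 0.0276), without the intensity trend (0.0278), in the single fit over all populations (0.015) and without stromal sham replicate 1, stromal UUO replicate 2 or stromal rUUO replicate 1 (0.0388 to 0.0431). In rUUO its difference from sham was -0.97 (adjusted p = 0.0722), with adjusted p of 0.0231 to 0.0423 under those 3 settings and quantile normalization.

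The stromal receptor mixture differed between surgeries. Notch2 was 20.0% ± 2.66 of the receptor FPKM in sham, 54.7% ± 7.09 in UUO and 53.4% ± 8.30 in rUUO (SD, n = 4), with no overlap between sham (at most 22.2%) and the other surgeries (at least 42.0%). Notch3 was 33.6% ± 7.55, 26.8% ± 5.33 and 14.8% ± 6.26, and Notch1 39.3% ± 7.07, 14.2% ± 4.496 and 28.5% ± 13.95. Summed receptor FPKM was 60.4 ± 10.02 in sham, 37.5 ± 9.60 in UUO and 53.5 ± 10.3 in rUUO. These shares are a description, without a test.

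The other 3 ligands also fell in stromal UUO, and Dll4 was lower in rUUO as well. Dll4 and Dll1 had means under 1 FPKM in stromal UUO and rUUO. They passed the filter through the sham samples, the group they are compared with, and their falls ended near the floor. Jag2 had a mean of 0.165 FPKM in stromal UUO and passed through sham and rUUO, so its fall ended near the floor as well. Dll4 had 3.90, 3.18, 2.06 and 4.04 FPKM in sham, 0.46, 0.59, 0.42 and 0.11 FPKM in UUO and 0.59, 0.87, 0.20 and 0.29 FPKM in rUUO. Every sham value lay above every other value, and UUO and rUUO overlapped. The difference was -1.61 ± 0.33 in UUO (SE, adjusted p = 0.00205) and -1.52 ± 0.33 in rUUO (adjusted p = 0.00452), and both calls held under every alternative and every left-out sample (adjusted p of at most 0.00969 and 0.0315). Dll1 had 3.02, 5.80, 1.39 and 2.59 FPKM in sham, 0, 0.83, 0.63 and 0.29 in UUO and 1.00, 1.68, 0.33 and 0.91 in rUUO. Its UUO change of -1.48 ± 0.39 (SE, adjusted p = 0.0106) left no overlap with sham and had an adjusted p of at most 0.0468 under every alternative and every left-out sample, and it was not called in rUUO (-1.03, adjusted p = 0.0901). Jag2 had 1.39, 2.20, 6.53 and 1.39 FPKM in sham and 0.03, 0.21, 0.33 and 0.09 FPKM in UUO, again without overlap. Its fall of 1.56 on the log2 scale (adjusted p = 0.0325) had an adjusted p of 0.0556 to 0.109 without stromal sham replicate 2 or 3 or stromal UUO replicate 1, 2 or 4, and of 0.0779 with quantile normalization. Counting all members, 3 were called without stromal sham replicate 3 and 4 without stromal UUO replicate 4, where 7 were called with all samples.

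Between rUUO and UUO, 0 of 10 stromal members were called by limma, 3 of them with an unadjusted p under 0.05, beside 2.95% of genes higher and 1.22% lower. The stromal target genes overlapped between surgeries. Hes1 had 6.47 to 14.6 FPKM in sham, between 5.11 and 11.01 in UUO and between 3.00 and 10.4 in rUUO, and its difference from sham in rUUO was -0.67 (adjusted p = 0.218). Hey1 had 0.91 to 7.74, 1.78 to 3.62 and 2.09 to 8.5 FPKM, and its difference in UUO was -0.17 (adjusted p = 0.83).

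The stromal falls came with lower sums of several marker lists of other cells and a higher sum of stromal markers. The 8 stromal markers summed to between 1350 and 2791 FPKM in sham, 7101 and 12090 in UUO and 5229 and 6849 in rUUO, with the collagen gene Col1a1 at 174 ± 121 FPKM in sham and 2513 ± 762.3 in UUO (SD, n = 4). Among them Pdgfrb, the gene of the sorting antigen, was at 157 to 258 FPKM in sham and 92.9 to 174 in UUO, and the pericyte gene Cspg4 at 42.9 to 65.9 and 9.32 to 23.8. Smooth muscle markers summed to 211.6 to 593 FPKM in sham and 386 to 893 in UUO. The 8 endothelial markers summed to 80.8 to 102 FPKM in stromal sham, between 41.2 and 64.0 in UUO and between 64.1 and 122 in rUUO, with 3 of 7 tested lower in UUO and a median change of -0.95. In stromal sham the mean FPKM of single endothelial markers was 1.23% to 10.9% of the endothelial mean (median 2.08%), where Notch1 was at 29.1%, Dll1 at 41.2%, Jag2 at 15.7%, Hey1 at 10.6%, Notch4 at 9.77% and Dll4 at 9.71%. The 6 markers of arterial endothelium summed to 366 to 532 FPKM in stromal sham and 11.1 to 17.1 FPKM in UUO, with 4 of 4 tested lower, and most of the sham sum came from the connexin gene Gja5 (266 to 368 FPKM) and the ephrin gene Efnb2 (67.5 to 154 FPKM), which endothelial sham samples held at 114.6 ± 31.5 and 150.7 ± 39.2 FPKM (SD, n = 4). Every stromal sham value of Gja5 lay above the endothelial sham values (78.9 to 155 FPKM). The part of endothelial cells in the fall of the arterial sum was not tested. Thick ascending limb (4 of 4), distal convoluted tubule (3 of 3), collecting duct (4 of 4) and podocyte markers (3 of 4) were lower too in stromal UUO, none of these lists having a marker at 0 throughout. The part of these cells, and of a changed make-up of the stromal sort, in the changes of the stromal members was not tested.

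**Figure D4:**
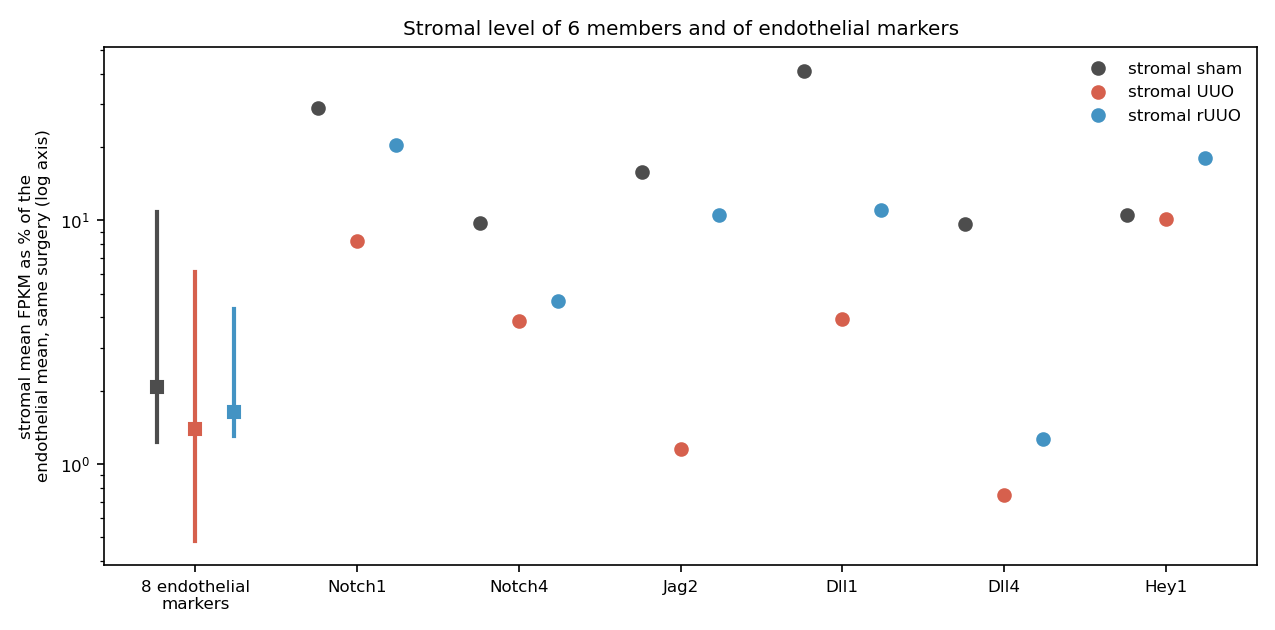
Mean stromal FPKM as a percent of the mean endothelial FPKM in the same surgery, on a log axis, for 6 members (points) and for 8 endothelial markers (squares at the median, lines from the lowest to the highest marker). In sham Notch1 (29.1%), Jag2 (15.7%) and Dll1 (41.2%) lie above the highest of the 8 markers (10.9%), and in UUO Jag2 (1.15%) and Dll4 (0.744%) lie below the median marker (1.40%).

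In the fits by population no endothelial or macrophage member was called between surgeries, and in the single fit over all populations macrophage Jag1 was called in rUUO against sham (adjusted p = 0.0128). In endothelial cells Dll4 had 33.0, 34.2, 42.7 and 26.0 FPKM in sham, 56.4, 63.9 and 39.1 in UUO and 37.2, 42.7, 27.7 and 47.1 in rUUO, and its difference in UUO of 0.62 ± 0.25 (SE) had an unadjusted p of 0.0228 and an adjusted p of 0.273. Endothelial Notch1 (45.9 to 108 FPKM), Notch4 (28.5 to 55.6) and Jag1 (7.23 to 24.7) overlapped between all surgeries. Endothelial Jag2 had 13.1 to 15.1 FPKM in UUO and 16.1 to 21.6 in rUUO, without overlap, and both overlapped with sham (11.9 to 27.8), the difference between rUUO and UUO being 0.36 (adjusted p = 0.693). Endothelial Dll1 had 4.45 to 13.9 FPKM in sham and 8.04 to 15.2 in UUO, and Notch3 had 1.35 to 1.62 FPKM in sham and 0.76 to 1.06 in UUO, without overlap in the latter. Endothelial Notch2 had 3.43 to 3.73 FPKM in rUUO, above the 2.10 to 3.32 of sham, but its difference of 0.32 did not pass (adjusted p = 0.672). Endothelial Hes1 stayed within 11.4 to 23.1 FPKM and Hey1 within 20.8 to 58.4 FPKM. No endothelial member was called by limma in rUUO against UUO or sham, and none had an unadjusted p under 0.05, where 0.0448% and 0.0149% of genes were higher and lower against UUO and 1.40% and 0.366% against sham.

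Macrophage Notch2 lay within 25.7 to 44.2 FPKM over all 11 samples, and its difference from sham was -0.20 in UUO (adjusted p = 0.594) and 0.004 in rUUO (adjusted p = 0.997). Macrophage Notch1 had 24.6, 13.5, 17.9 and 9.79 FPKM in sham, 4.75, 5.09, 14.3 and 10.3 in UUO and 6.59, 8.10 and 13.2 in rUUO. The groups overlapped, and the UUO difference of -0.91 had an unadjusted p of 0.0255 and an adjusted p of 0.181. Macrophage Hes1 had 1.04 to 4.07 FPKM in sham, between 0.15 and 1.3 in UUO and between 0.66 and 1.72 in rUUO. The members under the filter in macrophages reached at most 0.5 FPKM for Notch3, 2.94 for Notch4, 1.41 for Jag2, 0.24 for Dll1, 3.2 for Dll4 and 3.37 for Hey1. The values of Notch3, Jag2, Dll4 and Hey1 all came from the same sample, macrophage rUUO replicate 1. The other rUUO samples were at 0.57 FPKM or below for Dll4 and Hey1. No macrophage member was called by limma in rUUO, with 1 of 4 at an unadjusted p under 0.05 against UUO and 1 of 4 against sham. Of all genes, 1.89% were higher and 1.55% lower against sham, and 0.0% were higher and 0.0% lower against UUO, where 945 of 13332 had an unadjusted p under 0.05.

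The interaction F asks whether a change differed among the 4 populations, and 4 members passed the filter in all of them, Notch1, Notch2, Jag1 and Hes1. Jag1 had sham means of 0.677 FPKM in PT cells and 0.9125 FPKM in macrophages, and Hes1 of 1.60 and 1.97 FPKM. Notch1 had a sham mean of 1.75 FPKM in PT cells. These left Jag1 little room to fall there, and Hes1 there and Notch1 in PT cells not much more. The F from sham of Jag1, Hes1 and Notch1 therefore partly reflects the starting level too. From sham to UUO, Hes1 (F = 8.17, adjusted p = 0.00177), Notch1 (F = 6.64, adjusted p = 0.00556) and Notch2 (F = 4.15, adjusted p = 0.0393) followed Jag1. From sham to rUUO Notch2 differed (F = 6.48, adjusted p = 0.0126) beside Jag1, and from UUO to rUUO Jag1 did. Over all 10 members 8, 4 and 1 were called from sham to UUO, from sham to rUUO and from UUO to rUUO, where 33.5%, 15.1% and 5.57% of 14332 genes were. The other 6 members lay under the filter in macrophages, and 5 of them in PT cells too, where they had little room to fall on this scale, so their F partly reflects where they are expressed and is not read as a difference in response. Notch4 and Hey1 passed in none of these tests.

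A list of 45 other pathway genes, from ligands and proteases to nuclear partners and targets, was called at shares near or below those of all genes in most comparisons. In PT UUO 7 of 29 tested genes were higher and 0 lower, where 27.9% and 4.91% of all genes were, with a median of 0.36 beside 0.51 over all genes. Ncstn, the gamma-secretase subunit nicastrin, rose from 5.50 ± 1.08 (SD, n = 3) to 23.9 ± 5.47 FPKM (SD, n = 4), by 1.93 on the log2 scale (adjusted p = 5.07e-05), and in rUUO it was still at 15.4 ± 3.196 (SD, n = 3, adjusted p = 0.00547). The receptor glycosyltransferase Poglut1 also rose in PT UUO (1.43, adjusted p = 0.00586). In PT rUUO against sham 2 of 29 genes were higher and 0 lower, beside 6.52% and 0.946% of all genes.

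In stromal UUO 3 of 37 pathway genes were higher and 5 lower, beside 13.4% and 13.0% of all genes, with a median of -0.09 beside -0.07 over all genes. Dtx4, a Deltex ubiquitin ligase that acts on Notch receptors, rose from 5.84 ± 1.42 to 30.2 ± 10.5 FPKM in UUO (2.15, adjusted p = 1.29e-05) and to 43.6 ± 2.67 FPKM in rUUO (2.73, adjusted p = 2.69e-06; SD, n = 4 each). Adam10, the protease that makes the first cut in the receptor, was higher by 0.66 in UUO (adjusted p = 0.037) and 0.71 in rUUO (adjusted p = 0.0384). Its UUO estimate was of like size in PT cells, 0.70, where it was not called (adjusted p = 0.108). In macrophages and endothelial cells the estimates were 0.213 and -0.019, also not called. Among those that fell in UUO were Maml3, a coactivator of the RBPJ complex, from 17.4 ± 5.80 to 3.47 ± 1.89 FPKM (-2.06, adjusted p = 0.000131), the presenilin gene Psen2 (-1.97, adjusted p = 0.000266) and the ligand ubiquitin ligase Mib2 (-1.78, adjusted p = 0.0293), and Numbl, a Numb-like adaptor, rose by 1.10 (adjusted p = 0.00851). In rUUO against sham 2 were higher and 3 lower, beside 11.6% and 5.57% of all genes, the latter Psen2 (-1.72, adjusted p = 0.00125), the Notch feedback gene Nrarp (-1.57, adjusted p = 0.00553) and Maml3 (-1.20, adjusted p = 0.0131).

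Few other pathway genes changed in the remaining sorts. Macrophage Mfng, a Fringe that modifies receptors, fell from 24.4 ± 8.85 to 9.27 ± 2.72 FPKM in UUO (-1.27, adjusted p = 0.034), and macrophage Rbpj fell from 117 ± 17.3 in sham (SD, n = 4) to 63.3 ± 12.01 FPKM in rUUO (SD, n = 3; -0.89, adjusted p = 0.0203), each being the single call of 34 genes, where 2.13% of all genes were lower in UUO and 1.55% in rUUO. No pathway gene was called by limma in any endothelial comparison (38 genes tested) or between rUUO and UUO in any population.

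Each member's pattern over the 12 group means was set beside that of 14312 genes, as a description over means that share libraries and depth. Notch3 ran closest with Slc24a3, Fhl2 and Npy1r (Pearson r of 0.99 for each), and Notch4 with Hecw2, Meox1 and Cyp26b1 (0.99 to 1.00). Notch1 ran with Fam219a, Dock1 and Trim62 (0.97 to 0.98), Notch2 with Fam46a, Adam33 and Adcy7 (0.98 to 0.99), and Jag1 with Ift43, Capn5 and Hoxb3 (0.97 to 0.98). Closest to Jag2 were Podxl, Samd12 and Hecw2, to Dll4 Myct1, Gm38287 and Colgalt2, and to Hey1 Ptprb, Arhgef26 and Ptpru, all with r of 0.98 to 0.99. Dll1 had the lowest values, with Rph3al, Sh3tc2 and Shroom4 at 0.95 to 0.97, and Hes1 ran with Cdc42ep1, Arl2bp and Men1 at 0.98.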

How the data were processed

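Sorted LTL+, F4/80+, CD31+ and PDGFRB+ mouse kidney cells were profiled by RNA-seq. The authors deposited FPKM per gene on GRCm38 (mm10), and the submitters' processing notes name FastQC, Bowtie2, RSEM and DESeq2 without their roles. Of 46 value columns, 2 share the name of one endothelial UUO sample and were left out, and none is named for PT sham sample 3. One PT sample is titled SHAM UUO and took its group, UUO, from the treatment label. limma 3.58.1 (with an intensity trend) in R 4.3.3 was run on log2(FPKM + 1), in 1 fit per population, on genes whose mean reached 1 FPKM, with Benjamini-Hochberg adjustment over all tested genes and a threshold of 0.05. Sham populations had a fit of their own, and differences of changes were tested by an interaction F over all samples. Each fit shares 1 estimate of spread over its groups. The code was tested on simulated data. Named were all members, at most 3 called pathway genes per direction and comparison, and the 3 genes most like each member. One pathway gene that this rule names is not reported here. Gja5, Efnb2, Pdgfrb, Cspg4, Rgs5, Col1a1, Atp6v1g3, Aqp2, Aqp3, Hsd11b2 and Umod were named after their values were seen. Members and lists were chosen with earlier results of these data known. Alternatives were a pseudocount of 0.1, no filter, TPM, rescaling without 37 mitochondrial genes, quantile normalization, no intensity trend, 1 fit over all populations, a replicate block and leaving out each sample. The table holds no counts, so depth is unknown and no counting interval was given.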

Additional observations from a re-analysis of the deposited data

Results flagged for a closer look

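Among 80 groups of 4 samples, 3 had a sample far from the other 3 by Dixon's test, and chance alone marks about 5% of groups. These were Notch1 in stromal sham replicate 2 (36.42 FPKM, the others 19.6 to 20.4), Notch4 in macrophage UUO replicate 1 (2.94 FPKM, the others 0.2 to 0.47) and Hes1 in macrophage UUO replicate 2 (0.15 FPKM, the others 1.16 to 1.3).

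The change between surgeries differed among the 4 populations by the limma interaction F for several members. From sham to UUO F was 29.9 for Jag1, 15.2 for Dll4, 8.36 for Dll1, 8.17 for Hes1, 6.64 for Notch1, 4.64 for Notch3, 4.63 for Jag2 and 4.15 for Notch2. From UUO to rUUO F was 7.72 for Jag1. From sham to rUUO F was 11.5 for Dll4, 9.36 for Jag1, 8.66 for Notch3 and 6.48 for Notch2. Only Notch1, Notch2, Jag1 and Hes1 passed the filter in all 4 populations, and the F of Notch3, Jag2, Dll1 and Dll4 includes macrophages, and for all but Dll1 also PT cells, in which they lay under the filter with little room to fall, so it is not read as a difference in response.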

How the results depend on the processing

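No member's called change turned direction under any alternative. Quantile normalization left 1 PT member called in UUO against sham (Jag1), 1 PT pathway gene in rUUO against sham, 4 members between PT and stromal sham cells, 5 members whose change to UUO differed among populations and 0 whose change from UUO to rUUO did, and rescaling without mitochondrial genes also left 0 of the last. Both raised the macrophage pathway calls in UUO from 1 to 2. The single fit over all populations called 1 macrophage member in rUUO against sham (Jag1) and, in stromal cells, 3 members in rUUO against UUO and 5 in rUUO against sham. The cause of these shifts was not tested. Same-numbered samples did not deviate together (r from -0.079 to 0.159), so the numbers were not taken as pairs. A replicate block called 1 stromal member in rUUO against UUO (Notch1, 1.70, adjusted p = 0.0369).

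Leaving out each sample gave 3 to 8 stromal members in UUO against sham, 0 to 1 in rUUO against UUO, and 0 to 1 members whose change from UUO to rUUO differed among populations. Stromal Notch3 and Jag2 in UUO were not called without the filter (adjusted p = 0.0601 and 0.0808), nor Notch3 and Jag1 on TPM (0.0614 and 0.0565).

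Totals of called genes moved by over 1.5 times in several settings, given here against 1 fit per population: 3747 to 2435 in PT UUO against sham with quantile normalization, 437 to 160 in PT rUUO against UUO, 459 to 115 in macrophage rUUO against sham, 265 to 101 in endothelial UUO against sham, 237 to 68 in endothelial rUUO against sham, 585 to 116 in stromal rUUO against UUO and 2407 to 1574 in stromal rUUO against sham with the block, and 852 to 484 in PT rUUO against sham and 665 to 364 in macrophage UUO against sham without the filter. The single fit called 67 in place of 8 genes in endothelial rUUO against UUO and 35 in place of 0 in macrophages.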
